A study of Rattus norvegicus with 6 samples.

Results

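The cytosolic ribosomal protein genes were followed in the rat lateral ventricular choroid plexus over 3 ages. They were taken as every gene with a probe set of its own whose symbol begins with Rpl or Rps and a digit, together with Rpsa, Rplp0, Rplp1 and Rplp2. Ribosomal S6 kinases and symbols marked as pseudogenes were left out. The array gave 48 such genes of 14217 genes in all, with 29 proteins of the large subunit, 13 of the small subunit and 6 paralogs, which are second genes resembling a ribosomal protein. A further 36 probe sets that carry a ribosomal protein symbol also listed other genes and were kept apart. Rplp1 and Rplp2 had no probe set of their own. Where a gene had several, the one brightest on average over the 6 arrays stands for it. Within this group, genes were taken by symbol.

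The choroid plexus is the secretory epithelium, with its vessels and stroma, that produces cerebrospinal fluid. Sprague-Dawley rats without any treatment were sampled as fetuses on embryonic day 19 (E19), as pups on postnatal day 2 (P2) and as adults, with 2 arrays per age. The labels describe each RNA as a batch of 6 to 10 plexuses, so that an array stands for a pool of animals and its partner for a separate pool. The study's methods give fewer animals per pool for the adult than for the younger ages, so that pool size differed with age. P-values measure the spread between pools. The study's methods list male adults beside pregnant females and litters, and adult age and sex therefore cannot be told apart.

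A ribosome joins a small subunit, which reads the mRNA, to a large subunit, which forms the peptide bond. Each carries a single copy of most of its proteins, and cells make these proteins in matched amounts on top of ribosomal RNA made by RNA polymerase I. Demand for new ribosomes is high in dividing and growing cells and in cells that secrete much protein. In mammals most ribosomal protein mRNAs begin with a C followed by an unbroken run of C and T, the 5′ terminal oligopyrimidine (TOP) motif, through which the mTOR pathway controls their translation.

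The starts of 8 transcripts are shown. Rplp0, Rps15, Rpl35, Rpl12 and Rpsa are among the genes with the highest changes below, Rpl35a and Rpl26 are among the 5 brightest, and Rpl19 has a long run of this kind. The sequences are from the RefSeq promoter table of build GRCr8, 5′ to 3′ on the transcribed strand. Each holds 10 bases before the annotated transcript start and 20 bases from the start on. Capitals mark an unbroken run of C and T that opens with C at the first transcribed base and is at least 5 bases long.
Rplp0: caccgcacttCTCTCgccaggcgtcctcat
Rps15: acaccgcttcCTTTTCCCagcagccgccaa
Rpl35: cttcctctttCTCTCgaaccgggcggcctc
Rpl19: ccagcaagctCTTTCCTTTCgctgctgcgt
Rpl35a: tcttgccttcCTCTTTCCgccatcttggcg
Rpl12: aacatccgtcttttcggctttcggttcgga
Rpsa: ccgcgctaccctggaacgggtccgtacggc
Rpl26: gtcaacttacagaaccggaagtcgcatgta
Among these windows the run was longest in Rpl19, at 10 bases, on the plus strand at chr10:83519054-83519083. It was 8 bases in Rps15 (minus strand, chr7:10068096-10068125) and in Rpl35a (minus strand, chr11:81235002-81235031). The windows of Rplp0 (minus strand, chr12:46718371-46718400) and Rpl35 (minus strand, chr3:43165902-43165931) have the shortest run counted, 5 bases. Those of Rpl12 (plus strand, chr3:36661930-36661959), Rpsa (plus strand, chr8:128728869-128728898) and Rpl26 (plus strand, chr10:54109682-54109711) have no such run at the annotated start. Of the 41 genes with a promoter entry, 11 (26.8%) have it, against 881 of 33469 promoters in the table (2.63%). Only runs from the annotated first base on the transcribed strand were counted. A match describes letters, not a regulatory site, and a gene without a match may still carry the motif if transcription starts elsewhere.

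Values are MAS5 signal intensities in arbitrary units on a linear scale. Probe sets whose mean reached 100 units in at least 1 stage were tested, 17808 in number, and 45 of the 48 genes were among them. The array-wide medians lay between 120.4 and 126 units in the 4 perinatal pools, and were 106 and 100.1 units in the adult. Within a stage, pools correlated at r = 0.978 to 0.988 over log2 values.

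Most ribosomal protein genes were among the brightest features of the tissue. A mean of at least 5000 units over the 6 arrays was found for 38 of them, between 7219 units for Rpl22 and 20962 units for Rps29, and all 38 stood among the 500 brightest probe sets. The probe set of Rps29, a zinc-binding protein of the small subunit, had the highest mean of the array. Rps23, which sits at the decoding centre, ranked 5. Probe sets hybridize with different efficiency, so that these ranks order signals and not transcript numbers. The other 10 genes lay at or below 1490 units.

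At both perinatal ages the group stood above the adult, more at E19 than at P2. The summed intensity of the 48 genes was 495340 and 501854 units in the E19 pools, 471176 and 463564 units in the P2 pools and 411964 and 404628 units in the adult pools. The sums of the stages did not overlap, and they decreased with age. They came to 1.22 times the adult sum at E19 and 1.14 times at P2. As a share of the summed intensity of all genes, the group held 3.42% ± 0.03 in E19 pools, 3.20% ± 0.03 in P2 pools and 2.74% ± 0.03 in adult pools (SD, n = 2 each).

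At E19, 23 of the 45 tested genes were higher than in the adult (adjusted p under 0.05, limma), none was lower and 22 did not pass the test. That is 51.1% higher, against 30.4% of all tested probe sets called higher and 24.2% called lower. Among the 771 tested probe sets of at least 5000 units, 24.8% were higher and 30.9% lower. The median log2 fold change of the 45 genes was 0.32, against 0.05 for all tested probe sets. Its sign was positive in 45 of 45 genes, and in 39 both E19 pools lay above both adult pools, which 43.6% of all tested probe sets did.

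At P2, 18 of 45 genes were higher than in the adult, or 40.0%, and none was lower, against 27.4% and 21.8% of all tested probe sets. In probe sets of at least 5000 units the shares were 20.0% higher and 28.0% lower. The median log2 fold change was 0.22, against 0.04 for all tested probe sets, and 42 of 45 genes were positive. In 34 genes both P2 pools lay above both adult pools (41.2% of all probe sets), and in 1 gene, Rpl13a, both lay below (36.3% of all probe sets). The E19 and P2 comparisons share the adult pools.

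The direction of these changes depends on how arrays are brought to a common scale. MAS5 had set the trimmed mean of every array alike. When each array was centred instead on its median over all probe sets, all log2 changes shifted by −0.28 at E19 and −0.26 at P2, the median of the ribosomal protein genes became 0.041 at E19 and turned to −0.035 at P2, and 3 genes stayed called as higher at each age. Centring on the tested probe sets shifted all changes by −0.11 at E19 and −0.12 at P2, with 15 and 8 genes higher. Quantile normalization gave 28 and 26. Of the 17808 tested probe sets, 3498 at E19 and 3202 at P2 were higher with all-probe-set centring. With centring on tested probe sets 4597 and 4041 were, and with quantile normalization 4857 and 4345. All-probe-set centring thus called the ribosomal protein genes higher less often than all probe sets at both ages. Centring on tested probe sets did so at P2. Of all calls at E19, 55.7% were higher in the deposited scaling, 33.8% with all-probe-set centring, 46.7% with centring on tested probe sets and 49.2% with quantile normalization. At P2 the same shares were 55.6%, 33.3%, 44.6% and 48.7%. The distance between the ribosomal protein median and that of all tested probe sets was 0.27 at E19 and 0.18 at P2. Both centrings leave it unchanged by construction, since they move all changes alike. Quantile normalization gave 0.36 and 0.35. The counts also rest on single pools. Dropping any 1 pool lowered the number of genes called higher in the group, and that among all tested probe sets too. With a pool of the compared perinatal age dropped, the group was called higher no more often than all tested probe sets. The medians moved little. At E19 the group had 0.30 with E19 pool 1 dropped and 0.33 with E19 pool 2 dropped, against 0.05 for all tested probe sets in both fits. At P2 it had 0.23 with P2 pool 1 dropped and 0.21 with P2 pool 2 dropped, against 0.04 in both. Dropping an adult pool gave P2 medians of 0.24 and 0.22, against 0.04 and 0.03.

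**Figure D1:**
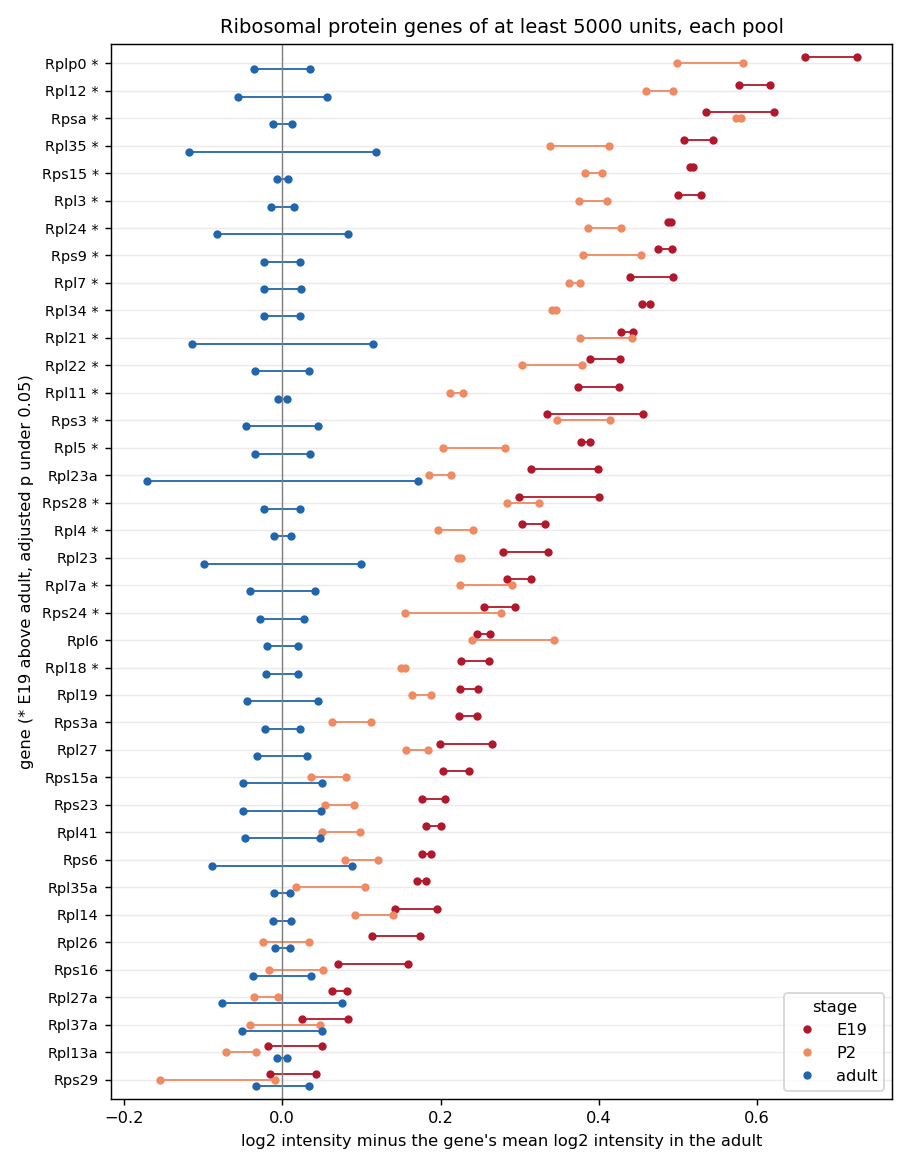
Log2 intensity in each pool of the 38 ribosomal protein genes of at least 5000 units (rows, ordered by their E19 change), minus the gene's mean in the adult; each point is a pool and a line joins the 2 pools of a stage. The E19 means lie above the adult in all 38 genes and the P2 means in 35, in the deposited scaling; with arrays centred on their all-probe-set median, the median P2 change turned to −0.035.

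The stages were ordered alike across most of the bright genes. In 34 of the 38 genes of at least 5000 units the means ran E19 above P2 above adult. Pools of a stage differed little in these genes, with a median difference of 2.51% of their mean between E19 pools, 3.04% between P2 pools and 4.67% between adult pools. The widest gap, 23.6%, was between the adult pools of Rpl23a.

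Rplp0, the protein at the base of the ribosomal stalk that recruits elongation factors, had the highest change of the bright genes at E19. It read 12673 and 13268 units at E19, 12008 and 11335 units at P2, and 8219 and 7829 units in the adult. All 4 perinatal pools lay above both adult pools. Its log2 fold change was 0.69 ± 0.09 at E19 (SE, adjusted p = 0.0024) and 0.54 ± 0.09 at P2 (adjusted p = 0.0063). Rpl12, which lies beside the stalk base, read 11764 and 12092 units at E19, 10851 and 11105 units at P2, and 7586 and 8203 units in the adult. Its groups did not overlap either, at 0.60 ± 0.09 for E19 (adjusted p = 0.00381) and 0.48 ± 0.09 for P2 (adjusted p = 0.00929).

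Rpsa, a small subunit protein also known as the laminin receptor precursor, was the gene with the highest change at P2 among the bright ones. It read 9641 and 10233 units at E19, 9937 and 9896 units at P2, and 6706 and 6594 units in the adult. E19 and P2 overlapped and both stood above the adult, at 0.58 ± 0.08 for each (adjusted p = 0.00356 at E19 and 0.00439 at P2). Rpsa has 3 probe sets of its own, and the other two gave 0.59 ± 0.09 and 0.68 ± 0.11 at E19 and 0.59 ± 0.09 and 0.62 ± 0.11 at P2. All 3 passed the test at both ages.

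Other large subunit proteins followed the same order of stages. Rpl3, a protein near the peptidyl transferase centre, read 15198 and 14890 units at E19, 13994 and 13658 units at P2, and 10422 and 10637 units in the adult, a change of 0.51 ± 0.08 at E19 (adjusted p = 0.00463) and 0.39 ± 0.08 at P2 (adjusted p = 0.0129). Rpl24, which takes part in the bridges between the subunits, read 13228 and 13267 units at E19, 12334 and 12696 units at P2, and 8913 and 9995 units in the adult. It rose by 0.49 ± 0.09 on the log2 scale at E19 and by 0.41 ± 0.09 at P2. Rpl35, a protein at the rim of the exit tunnel, read 9043 and 9277 units at E19, 8038 and 8465 units at P2, and 5860 and 6902 units in the adult. Its adult pools were farther apart than those of Rpl3. The change was 0.53 ± 0.11 at E19 (adjusted p = 0.0125) and 0.38 ± 0.11 at P2 (adjusted p = 0.0396).

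Rpl21 read 10079 and 9972 units at E19, 9620 and 10074 units at P2, and 6849 and 8026 units in the adult, and rose at both ages by 0.44 ± 0.11 and 0.41 ± 0.11. Rpl22, an RNA-binding large subunit protein that the ribosome can do without in mice, read 7893 and 8099 units at E19, 7435 and 7835 units at P2, and 6170 and 5886 units in the adult. Both ages again stood above the adult, at 0.41 ± 0.08 for E19 and 0.34 ± 0.08 for P2. Rpl34 read 11723 and 11802 units at E19, 10834 and 10870 units at P2, and 8420 and 8692 units in the adult (0.46 ± 0.08 at E19 and 0.34 ± 0.08 at P2). These genes keep the order E19, P2, adult with no overlap between perinatal and adult pools. Rpl7 read 12620 and 13105 units at E19, 11966 and 12078 units at P2, and 9458 and 9154 units in the adult (0.47 ± 0.08 and 0.37 ± 0.08).

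In the small subunit, Rps15, Rps9, Rps3 and Rps28 rose at both ages beside Rpsa. Rps15, a protein of the head of the subunit, read 11219 and 11241 units at E19, 10231 and 10383 units at P2, and 7812 and 7885 units in the adult. Pools of each stage lay within 2% of one another, and the change was 0.52 ± 0.08 at E19 (adjusted p = 0.00431) and 0.39 ± 0.08 at P2 (adjusted p = 0.0121). Rps9, which bears on the accuracy of decoding, read 10090 and 10217 units at E19, 9947 and 9448 units at P2, and 7379 and 7150 units in the adult (0.48 ± 0.08 and 0.42 ± 0.08). Rps3, which lines the mRNA entry channel, read 9432 and 10259 units at E19, 9966 and 9510 units at P2, and 7718 and 7247 units in the adult. Its E19 and P2 pools overlapped above the adult ones, at 0.40 ± 0.09 for E19 and 0.38 ± 0.09 for P2. Rps28 read 9716 and 9061 units at E19, 9216 and 8965 units at P2, and 7249 and 7479 units in the adult, 0.35 ± 0.09 and 0.30 ± 0.09 above it. By class, 14 of 28 tested large subunit genes and 6 of 12 tested small subunit genes rose at E19, with medians of 0.31 and 0.25. At P2, 11 and 5 of them rose, with medians of 0.22 and 0.16.

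Rpl5 and Rpl11 are the pair that binds 5S ribosomal RNA and, when ribosome assembly is disturbed, the p53 regulator Mdm2. Rpl11 read 14744 and 14221 units at E19, 12710 and 12860 units at P2, and 10935 and 11022 units in the adult. Rpl5 read 14827 and 14712 units at E19, 13769 and 13037 units at P2, and 11601 and 11060 units in the adult. Both were called at E19 alone, Rpl11 at 0.40 ± 0.08 (adjusted p = 0.0107) and Rpl5 at 0.38 ± 0.08 (adjusted p = 0.0146). At P2 their changes were 0.22 ± 0.08 (adjusted p = 0.0709) and 0.24 ± 0.08 (adjusted p = 0.0639), and neither differed between P2 and E19 by the test.

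The smallest changes that passed the test at E19 were those of Rpl18, Rps24, Rpl7a and Rpl4. Rpl18 read 10455 and 10199 units at E19, 9676 and 9711 units at P2, and 8846 and 8602 units in the adult (0.24 ± 0.08 at E19, adjusted p = 0.0494, and −0.033 with all-probe-set centring). Rps24, mutated in some families with Diamond-Blackfan anaemia, read 13731 and 14105 units at E19, 13934 and 12817 units at P2, and 11735 and 11288 units in the adult (0.27 ± 0.09 at E19, adjusted p = 0.0484, and −0.0027 with all-probe-set centring). Rpl7a read 13987 and 14286 units at E19, 14055 and 13423 units at P2, and 11826 and 11169 units in the adult, with 0.30 ± 0.08 at E19. These genes had E19 pools wholly above the adult ones, by less than the genes named before. Rpl4 read 9863 and 10063 units at E19, 9166 and 9449 units at P2, and 8054 and 7935 units in the adult (0.32 ± 0.08 at E19). Rpl6 was called at P2 and not at E19, with 12428 and 12560 units at E19, 13286 and 12369 units at P2, and 10617 and 10336 units in the adult. Its changes were nearly equal, 0.25 ± 0.09 at E19 (adjusted p = 0.0529) and 0.29 ± 0.09 at P2 (adjusted p = 0.039). Just outside the threshold at E19, Rpl23 had 0.31 ± 0.10 (adjusted p = 0.0501).

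The brightest genes were among those that did not pass the test. Rps29 read 21042 and 21915 units at E19, 21134 and 19118 units at P2, and 21777 and 20789 units in the adult, and its stages overlapped. Rps23 read 19604 and 19995 units at E19, 18461 and 18010 units at P2, and 17940 and 16760 units in the adult, where the E19 pools lay above the adult pools by 0.19 ± 0.08 (adjusted p = 0.111). Rpl26, at the exit tunnel, read 16937 and 17670 units at E19, 16033 and 15394 units at P2, and 15762 and 15559 units in the adult. P2 and adult overlapped there, and the E19 change was 0.14 ± 0.08 (adjusted p = 0.193). Rpl35a read 15638 and 15764 units at E19, 14057 and 14944 units at P2, and 13799 and 13990 units in the adult. Rpl41, the shortest protein of the ribosome, read 15670 and 15463 units at E19, 14589 and 14114 units at P2, and 14092 and 13192 units in the adult. Neither passed the test at either age. Rps6, whose phosphorylation by S6 kinases is a common readout of mTOR activity, had a change of 0.18 ± 0.10 at E19 and 0.10 ± 0.10 at P2.

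Across the 38 bright genes, probe sets with a higher signal had smaller changes. The level was read from the age that the comparison does not use. For E19 versus adult, Pearson's r between log2 level at P2 and the log2 change was −0.51 and Spearman's rho −0.55. For P2 versus adult, with the level at E19, r was −0.57 and rho −0.57. The 12 dimmest of these genes at P2, up to 10852 units, had a median E19 change of 0.42 with 11 called, and the 12 brightest, of at least 13403 units, had 0.18 with 3 called. For P2 versus adult the medians were 0.36 with 9 called and 0.07 with 1 called. In the 700 other probe sets of at least 5000 units the signed log2 change rose with level, with r = 0.33 at E19 and 0.42 at P2. Their changes had both signs, so that this r does not describe the size of a change and is not the reverse of the pattern above. These points share 6 arrays and are genes, not replicates. Signals of different probe sets do not order transcript numbers, and Rps29 reached 21915 units where the highest value of any probe set on any array was 24990 units. The correlation is given as a description, and whether signals at the bright end respond less to a change in transcript was not tested.

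**Figure D2:**
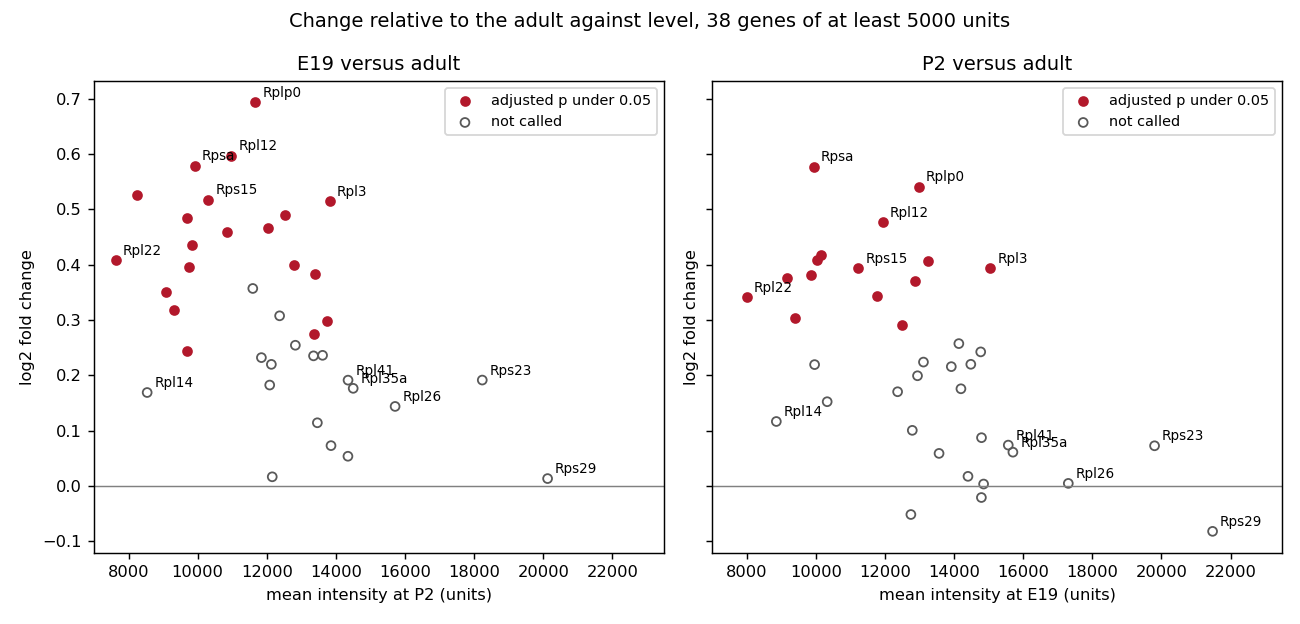
Log2 fold change against the adult (y axis) and mean intensity in units (x axis) for the 38 genes of at least 5000 units, with the level taken at P2 for E19 versus adult (left) and at E19 for P2 versus adult (right); filled points passed the test. Rps29 and Rps23 lie at the bright end with changes of 0.01 and 0.19 at E19, and Rplp0 has 0.69. All points move down together by 0.28 (left) or 0.26 (right) when arrays are centred on their all-probe-set median.

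Between P2 and E19 no ribosomal protein gene passed the test in either direction, against 3.62% of all tested probe sets higher and 3.50% lower, and 2.98% and 0.519% of those of at least 5000 units. A single gene, Rps4y2, had an unadjusted p under 0.05. The median log2 fold change of P2 over E19 was −0.10, against −0.002 for all tested probe sets, and 37 of the 38 bright genes had a lower mean at P2. Both P2 pools lay below both E19 pools in 32 of 45 genes, which 31.6% of all tested probe sets did. With another prior on the spread (eBayes with trend and robust settings) 2 genes were called lower. Quantile normalization, a stricter filter at 200 units or a floor at 100 units called 1 each.

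The 7 tested genes under 5000 units were 5 of the 6 paralogs and 2 canonical genes, Rpl28 and Rpl39, whose own probe set was dim. Rps4y2, a paralog of the small subunit protein Rps4x whose RefSeq start lies on chromosome 4, read 261 and 297 units at E19, 205 and 182 units at P2, and 38.7 and 35.5 units in the adult. Both adult pools lay under 100 units, so that the fold is a bound against 100 units. That puts E19 at least 2.79-fold higher and P2 at least 1.93-fold higher. The adjusted p-values (limma), 0.000116 at E19 and 0.000233 at P2, belong to the log2 changes of the readings as they stand, not to the bounds. Rps4y2 was called under every scaling tried. Rpl7l1, a nucleolar relative of Rpl7, read 1634 and 1582 units at E19, 1541 and 1736 units at P2, and 1239 and 1210 units in the adult. It was higher at E19 by 0.39 ± 0.10 and at P2 by 0.42 ± 0.10, and its second probe set gave 0.42 ± 0.10 and 0.44 ± 0.10. The log2 ratio of Rpl7l1 to Rpl7 stayed between −3.05 and −2.80 on all 6 arrays. Rps27l, a p53 target in human cells, read 688 and 728 units at E19, 588 and 676 units at P2, and 547 and 549 units in the adult (0.37 ± 0.10 at E19, adjusted p = 0.0305, and 0.20 ± 0.10 at P2, adjusted p = 0.158).

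Rpl39, a short protein of the exit tunnel, was called at P2 and not at E19. It read 412 and 326 units at E19, 558 and 463 units at P2, and 241 and 336 units in the adult. Its P2 pools were the highest, as the P2 means of Rpl6 and Rpl7l1 also were, at 0.84 ± 0.22 above the adult (adjusted p = 0.0267), while E19 and adult overlapped and P2 did not pass the test against E19 (0.47 ± 0.22, adjusted p = 0.228). Its paralog Rpl39l1 read 245 and 384 units at E19, 191 and 262 units at P2, and 180 and 230 units in the adult, and Rpl26l1 read 151 and 120.0 units at E19, 127 and 129 units at P2, and 140.3 and 86.0 units in the adult. Neither passed a test, and their pools differed more than those of the bright genes. Rpl28 read 174 and 160 units at E19, 149 and 132 units at P2, and 117 and 156 units in the adult, without a call.

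Rpl30, Rps13 and Rpl3l were not tested, since none reached a mean of 100 units at any stage. Rpl30 read 29.0 and 33.2 units at E19, 36.1 and 27.1 units at P2, and 22.7 and 24.3 units in the adult. Rps13 read 25.4 and 73.2 units at E19, 74.7 and 62.9 units at P2, and 74.4 and 73.0 units in the adult. Rpl30 and Rps13 belong to every ribosome, so that these probe sets stood at the level of background in a tissue that must use both proteins. Rpl3l, a paralog of Rpl3 confined to muscle in mice, read 36.0 and 36.5 units at E19, 10.4 and 44.1 units at P2, and 6.06 and 14.3 units in the adult.

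**Figure D3:**
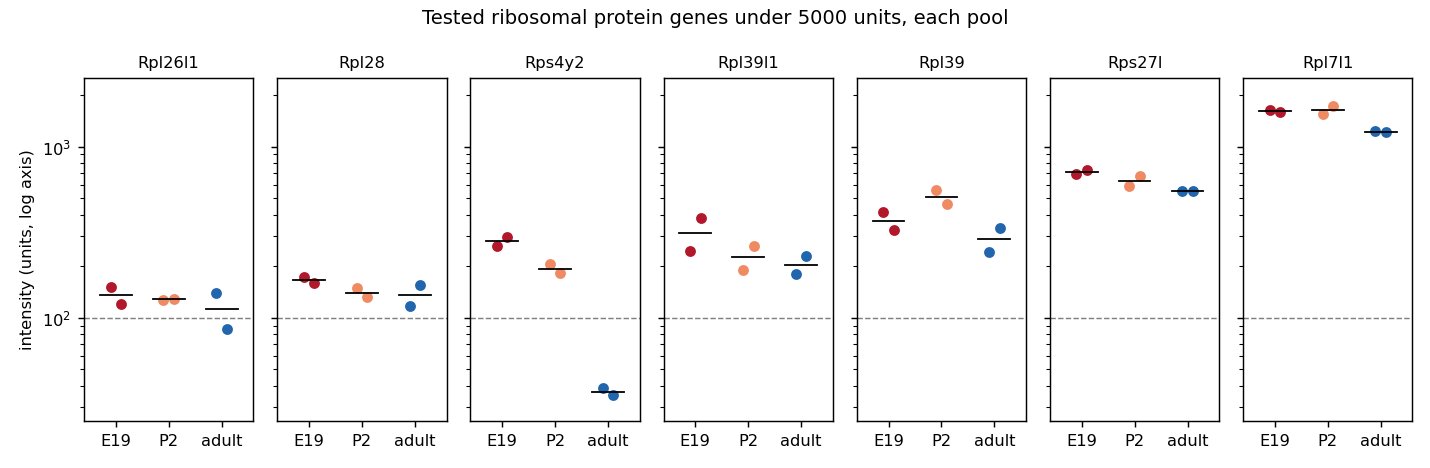
Intensity in units (log axis) of the 7 tested ribosomal protein genes with a mean under 5000 units; points are the 2 pools of each stage, bars their mean and the dashed line the 100-unit limit. Rps4y2 lies above the limit at E19 and P2 and below it in the adult, and Rpl39 is highest at P2.

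Several probe sets of a gene did not always read alike. The second probe set of Rpl7 gave 0.54 ± 0.15 at E19, beside 0.47 ± 0.08 for the one used. The second probe set of Rpl3, near 547 units, had wide pools and no call. That of Rps24 read 148 and 117 units at E19, 281 and 253 units at P2, and 154.2 and 153.5 units in the adult. It was higher at P2 than in the adult by 0.79 ± 0.14 (adjusted p = 0.00846), which the main Rps24 probe set, at 0.22 ± 0.09, was not. Of the 36 probe sets that list a ribosomal protein gene beside others, 35 were tested. At E19, 25 of them (71.4%) were higher and none lower, against 30.4% and 24.2% of all tested probe sets, with a median of 0.37. At P2, 17 (48.6%) were higher and none lower, against 27.4% and 21.8%, with a median of 0.28. No gene is named from them, since the signal of 1 copy cannot be told from that of another.

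The run at the annotated start was set beside the change. Of 11 tested genes with the run at their annotated start, 5 were called at E19, and of 28 tested genes without it 16 were. Their medians were 0.36 and 0.31. Rplp0, Rps15 and Rpl35, with the run printed above, were among the most changed genes, and Rpl35a and Rpl19, which have it too, were not called at E19. Since the count takes a single annotated base per gene, it does not sort the genes by the TOP motif itself.

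Other genes of ribosome production and translation had calls in both directions, and each list is to be read against the 30.4% higher and 24.2% lower of all tested probe sets at E19, and the 27.4% and 21.8% at P2. Of 14 tested genes of RNA polymerase I and its factors, 4 rose at E19 and none fell (28.6% higher, near the share of all probe sets), and at P2 2 rose and 1 fell (14.3% and 7.14%, below it). Taf1d, a subunit of its promoter selectivity factor, read 576 and 645 units at E19, 636 and 469 units at P2, and 283 and 230 units in the adult, a change of 1.25 ± 0.19 at E19 and 1.10 ± 0.19 at P2. Rrn3, the initiation factor that recruits the polymerase, fell by 0.36 on the log2 scale at P2 (SE 0.09, adjusted p = 0.026). The median of the list was −0.06 at E19 and 0.14 at P2.

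Of 82 tested genes of ribosome assembly and ribosomal RNA processing, 16 rose and 11 fell at E19 (19.5% and 13.4%), and 18 rose and 8 fell at P2 (22% and 9.76%), all below the shares of all probe sets. The medians were 0.05 and 0.10. Ruvbl2 and Ruvbl1 are the paired ATPases that help to build the small nucleolar ribonucleoproteins. Ruvbl2 read 2446 and 2497 units at E19, 2488 and 2310 units at P2, and 948 and 935 units in the adult (1.39 ± 0.09 at E19 and 1.35 ± 0.09 at P2). Ruvbl1 rose by 1.08 ± 0.14 at E19 and 0.99 ± 0.14 at P2. Nop58, a core protein of the box C/D particles that methylate ribosomal RNA, read 3153 and 3286 units at E19, 2545 and 2724 units at P2, and 1479 and 1384 units in the adult (1.17 ± 0.09 and 0.88 ± 0.09). Gar1, of the box H/ACA particles that make pseudouridine, rose by 1.16 ± 0.16 and 1.07 ± 0.16.

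Translation initiation factors numbered 32 tested, of which 10 rose and 2 fell at E19 (31.2% higher, near the share of all probe sets, and 6.25% lower, below it) and 12 rose and 3 fell at P2 (37.5% and 9.38%). The medians were 0.14 and 0.12. Eif4a1, the helicase of the cap-binding complex, read 5597 and 5472 units at E19, 5346 and 5880 units at P2, and 3466 and 3402 units in the adult (0.69 ± 0.09 and 0.71 ± 0.09). Eif2s3, a subunit of the factor that carries the initiator tRNA, rose by 0.74 ± 0.09 and 0.67 ± 0.09. Eif4e2, a cap-binding protein that represses translation, rose by 1.00 ± 0.13 and 1.14 ± 0.13. The scaffold Eif4g1 ran the other way, with 1879 and 1831 units at E19, 2109 and 1982 units at P2, and 3175 and 3331 units in the adult (−0.81 ± 0.09 and −0.67 ± 0.09), as did Eif4g3 (−0.69 ± 0.08 and −0.88 ± 0.08).

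Of 9 tested elongation factor genes, 2 rose and 1 fell at E19 (22.2% and 11.1%, below the shares of all probe sets), and 2 rose and 2 fell at P2 (22.2% each). Eef1g, a subunit of the exchange factor for Eef1a1, read 11001 and 11146 units at E19, 10706 and 10855 units at P2, and 7836 and 7685 units in the adult (0.51 ± 0.08 and 0.47 ± 0.08). Eif5a, which helps the ribosome through difficult peptide bonds, rose by 0.53 ± 0.11 and 0.46 ± 0.11. Its paralog Eif5a2 fell by 1.77 on the log2 scale at E19 (SE 0.10) and by 1.00 at P2 (SE 0.10). Rack1, a scaffold protein on the head of the small subunit that the symbol rule does not take in, rose by 0.48 ± 0.08 at E19 (adjusted p = 0.0063) and by 0.31 ± 0.08 at P2 (adjusted p = 0.027).

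Among 25 tested regulators of ribosome production, from the Myc and mTOR pathways, 6 rose and 4 fell at E19 (24% and 16.0%) and 5 rose and 5 fell at P2 (20.0% each), again below the shares of all probe sets. Mycl, a Myc family transcription factor, read 197 and 201 units at E19, 231 and 264 units at P2, and 89.7 and 71.7 units in the adult, and since both adult pools lay under 100 units the bound was at least 1.99-fold for E19 over adult and at least 2.47-fold for P2 over adult. Myc and Mycn, of the same family, stayed under 100 units in every pool and were not tested. Mxi1, a Myc antagonist, fell by 1.04 at E19 (SE 0.11) and by 0.69 at P2 (SE 0.11). Eif4ebp1, which mTOR releases from the cap-binding protein, rose by 0.94 ± 0.16 and 0.59 ± 0.16. Rptor, the mTORC1 scaffold, fell by 0.69 at P2 (SE 0.10).

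The mitochondrial ribosome, whose proteins are also made in the cytosol, was called no more often than other genes. Of its 73 tested protein genes, 10 rose and 17 fell at E19 (13.7% and 23.3%) and 6 rose and 9 fell at P2 (8.22% and 12.3%), with medians of 0.03 and 0.01. Mrpl42 fell by 1.48 at E19 (SE 0.12) and by 1.19 at P2 (SE 0.12), and Mrpl36 rose by 0.92 ± 0.11 and 0.72 ± 0.11.

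**Figure D4:**
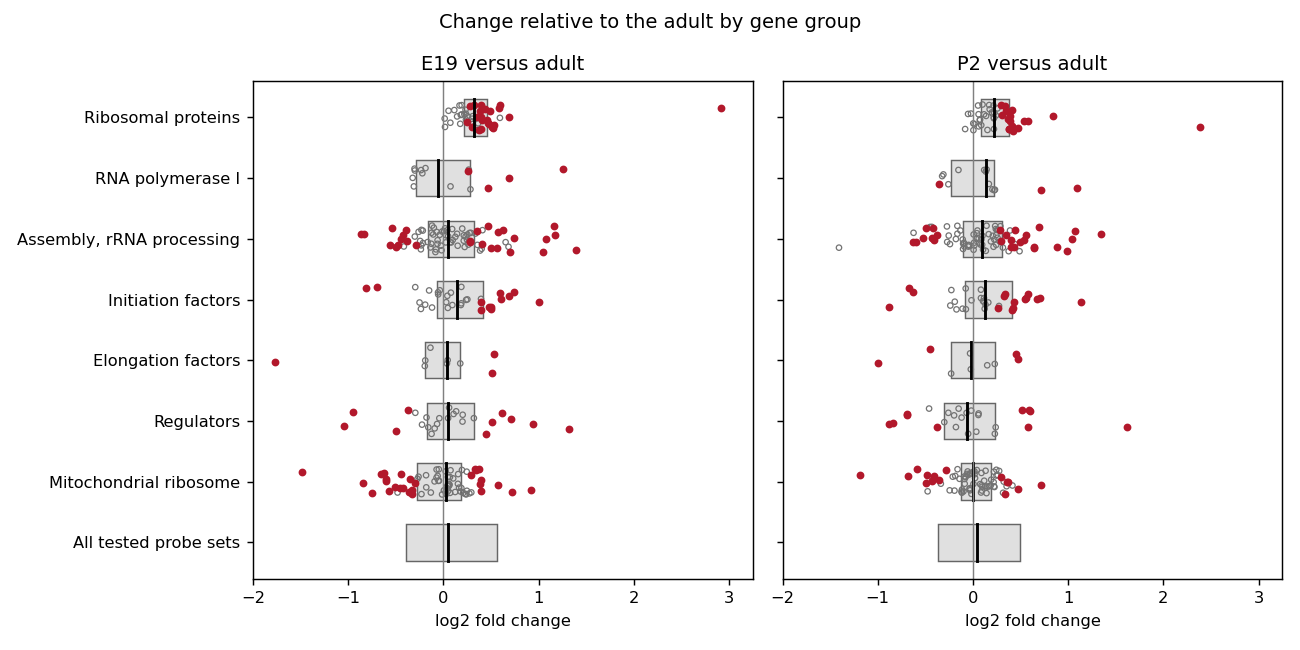
Log2 fold change against the adult (x axis) at E19 (left) and P2 (right) for the ribosomal protein genes, the other gene groups and all tested probe sets (rows); points are genes, filled where they passed the test, boxes span the quartiles and thick lines are medians. The ribosomal proteins have medians of 0.32 and 0.22 with no gene called lower, while the other lists have calls on both sides, apart from RNA polymerase I at E19. Centring arrays on their all-probe-set median moves everything down by 0.28 at E19 and 0.26 at P2, which turns the ribosomal protein median at P2 to −0.035.

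Markers of several cell types differed with age beside these genes. Their counts are to be read against the 30.4% higher and 24.2% lower of all tested probe sets at E19, and the 27.4% and 21.8% at P2. All 8 cell cycle markers were higher at E19 and at P2, with a summed intensity of 11032 and 11324 units at E19, 10171 and 10609 units at P2, and 4169 and 4218 units in the adult. All 5 endothelial markers were higher at both ages, summing to 7369 and 6932 units at E19, 6209 and 5771 units at P2, and 1526 and 1472 units in the adult. Of 6 fibroblast and matrix markers, 5 were higher and 1 lower at both ages, with sums of 19014 and 19229 units at E19, 22627 and 19626 units at P2, and 7025 and 7586 units in the adult. Erythroid markers were higher in 4 of 4 genes at E19 and 3 of 4 at P2, and their sums were 20784 and 20253 units at E19, 18772 and 17662 units at P2, and 14846 and 14407 units in the adult. Macrophage markers were higher in 1 of 5 at E19 (20%, below the share of all probe sets) and 4 of 5 at P2 (80%). Of 6 tested choroid plexus epithelium markers, 1 was higher and 2 lower at E19 (16.7% and 33.3%), and 2 were lower at P2 (33.3%). The list summed to 57949 and 59695 units at E19, 63939 and 60511 units at P2, and 70678 and 65277 units in the adult. The 6 tested markers thus had signal at each age. Kcnj13, also of this list, stayed under 100 units in every pool and was not tested. Most dividing, vascular and stromal markers thus stood above the adult at both perinatal ages, as the ribosomal protein genes did. For P2 over E19 the median log2 fold change of the ribosomal protein genes was −0.10. It was −0.17 in cell cycle markers, −0.18 in endothelial markers and −0.29 in erythroid markers. Fibroblast and matrix markers had 0.05, with 3 of 6 genes positive, macrophage markers 0.40 and choroid plexus epithelium markers 0.05. The part of these transcripts in the change was not tested. In these bulk pools, fewer cells of a type and less RNA per cell cannot be told apart.

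RNA integrity could be read from control probe sets at the ends of 2 transcripts. The ratio of 3′ to 5′ signal for beta-actin was 2.95 and 2.93 in the E19 pools, 2.54 and 2.09 in the P2 pools and 4.58 and 5.34 in the adult pools, while all 6 GAPDH ratios lay between 1.12 and 1.23. The beta-actin ratio was higher in both adult pools, and its part in the differences from the adult was not tested.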

How the data were processed

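RNA of 6 pools, 2 per stage, was hybridized to Affymetrix Rat Genome 230 2.0 arrays after amplification from the 3′ end. The authors deposited intensity values from Affymetrix Expression Console under MAS5 (its release was not given in the sources used here), linear and with the trimmed mean of every array set alike. The table held 31099 probe sets, 57 of them controls. Probe sets were matched to genes through the array annotation, with symbols updated from the RefSeq table of GRCr8: 20826 had a single gene, 436 several and 9780 none here, and 2 of the 48 genes (Rpl37a, Rps9) found no RefSeq match by number. Log2 intensities entered a linear model of limma 3.58.1 (R 4.3.3), 1 mean per stage over all 6 arrays, after a minimum mean of 100 units in at least 1 stage. Residual degrees of freedom numbered 3, with 2.15 from the prior. Adjustment of p-values by Benjamini and Hochberg ran over 17808 probe sets, and those under 0.05 were called. Every gene of the group could be named. Values in every array are given for the 8 highest and 8 lowest called changes, the paralogs, the 5 brightest and those not tested, and for other lists up to 4 called genes per comparison, of which not all are shown. Rpl11, Rpl23, Rps6 and the second probe sets were added after their values were seen. The genes and lists were chosen with earlier results of these data known. The number of arrays limits precision. The procedure was run on simulated data whose added changes were larger than those of most genes of the group. Recovery of changes as small as theirs was not simulated.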

Additional observations from a re-analysis of the deposited data

Results flagged for a closer look

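The second probe set of Rps24 was the single one of a ribosomal protein gene that differed between P2 and E19. It read 281 and 253 units at P2, against 148 and 117 units at E19, a log2 fold change of 1.01 ± 0.14 (SE, adjusted p = 0.0266, limma), and 154.2 and 153.5 units in the adult. The brighter Rps24 probe set gave −0.06 ± 0.09 for P2 over E19.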

How the results depend on the processing

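Arrays centred on their all-probe-set median gave 3 genes higher at E19 (median 0.041), and at P2 3 higher, 2 lower and a median of −0.035. There, 27 of 45 genes stayed positive at E19 and 19 of 45 at P2. Those that turned included Rps24 (−0.0027), Rpl18 (−0.033) and Rpl27 (−0.045) at E19. At P2 they included Rpl23 (−0.031) and Rpl27 (−0.085). Centring on tested probe sets, chosen after seeing the data, gave 15 and 8 higher with medians of 0.21 and 0.10. Quantile normalization gave a P2 median of 0.31, distances from the median of all probe sets of 0.36 and 0.35, and for P2 over E19 a median of −0.033 with 1 gene lower. Without a filter 9 genes were higher at E19 and 3 at P2, and at an adjusted p under 0.01, 10 and 4. With a trend and robust prior 36 were higher at E19, and 2 were lower at P2 than at E19; a filter at 200 units or a floor at 100 units gave 1 lower. Taking the mean of a gene's probe sets, or each probe set alone, gave 1 higher at P2 than at E19, Rps24 in the single-probe-set case. Shared probe sets, a choice made after seeing the data, had a P2 median of 0.28, 0.24 above all probe sets. Shares of all genes gave ratios to the adult of 1.25 and 1.17. Leaving out 1 pool gave 8 to 21 genes higher at E19 and 6 to 12 at P2, and a lone pool was taken to vary like the others. In all 6 such fits 8 of the 23 calls at E19 (Rpl12, Rpl3, Rpl34, Rplp0, Rps15, Rps4y2, Rps9, Rpsa) and 5 of the 18 at P2 (Rpl12, Rplp0, Rps15, Rps4y2, Rpsa) were kept. Pool numbers do not pair samples (correlations of deviations −0.057, −0.041 and 0.007), and a replicate block gave 21 and 14 genes higher. The causes were not tested.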
